A study of Mus musculus with 20 samples.

Results

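The genes described here make up the cholesterol supply of a cell. They are 19 enzymes that build cholesterol, 4 genes of its uptake and movement, 5 regulators and 2 export pumps, 30 genes in all. Membership follows a list of gene symbols, and each gene was read from a microarray probe set that carries its symbol alone. For Idi1 and Scap, which have a pair of such probe sets, the brighter of them was taken. Of the 30 genes, 28 were measured, among 18820 genes of the series. The levels of Acat2 and Nr1h2 were not analysed here, but both are among the genes whose promoter windows were searched. No gene was removed for a low level, so all 28 entered every test.

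Total RNA was measured on 20 arrays in 5 groups of 4. The cells were E46 (mHypoE-46) and A2/12 (mHypoA-2/12), both grown from mouse hypothalamus. The groups were E46 with serotonin titled 100 µg/ml, E46 with serotonin titled 1 µg/ml, E46 controls without serotonin, A2/12 with serotonin titled 100 µg/ml and A2/12 controls without serotonin. All groups share the same preparation: the cells were grown with calf serum, moved to serum-free medium for 4 h, and harvested from a 24 h exposure. By its label E46 is the serotonin sensitive line, and A2/12 the unresponsive line. Each line is an immortalised culture, so each stands for 1 cell population and not for a tissue, and whether the 4 arrays of each group stem from separate dishes is not stated. The description field contradicts the titles of the E46 serotonin arrays: it has 1 where the title has 100, and 100 where the title has 1. The doses used here are those of the titles, written as serotonin 100 and serotonin 1.

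Levels are log2 values made by the authors. A change is the difference of 2 group means, given with its standard error (SE), and was called at an adjusted p below 0.05 over all 18820 genes (limma). The p-values measure the spread between arrays, which may be technical. A background was taken from 1155 olfactory-type receptor genes, as the level that 95% of them stayed under (4.35 to 4.66 over the 5 groups). All 28 genes except Abcg1 lay above it in every group. Any pair of arrays correlated at 0.927 to 0.995, and 4 arrays had an upper quartile under 8.2. They were E46 control replicate 1, E46 serotonin 1 replicates 1 and 3, and A2/12 control replicate 2. No array at serotonin 100 was among them. In controls of each line, 6 of 12 measured neuron markers lay above the background, Map2 and Stmn2 among them, while Rbfox3, Snap25, Nefl and Dcx did not. Of 8 fibroblast and mesenchyme markers 7 lay above it in both lines, of 10 astrocyte and progenitor markers 8 in E46 and 5 in A2/12, and of 5 oligodendrocyte markers 0 did. The mean log2 level of several of these lists also moved with serotonin 100. For the mesenchyme markers it lay at 7.01 to 7.74 in E46 at serotonin 100 against 8.77 to 8.89 in E46 controls, and at 7.5 to 8.13 in A2/12 at serotonin 100 against 10.02 to 10.16 in A2/12 controls. For the astrocyte and progenitor markers it lay at 6.49 to 6.59 in E46 at serotonin 100 against 7.33 to 7.45 in E46 controls, and at 5.52 to 5.64 in A2/12 at serotonin 100 against 5.89 to 5.97 in A2/12 controls. For the 12 neuron markers it lay at 4.97 to 5.06 in E46 at serotonin 100 against 5.18 to 5.29 in E46 controls, and at 5.09 to 5.13 in A2/12 at serotonin 100 against 5.51 to 5.66 in A2/12 controls. The 6 endothelial markers lay lower at serotonin 100 in E46 (4.57 to 4.67, against 4.83 to 4.96 in controls) and higher in A2/12 (4.65 to 4.87, against 4.51 to 4.65 in controls). The part of this in the results below was not tested, and in such bulk samples fewer cells of a kind and less RNA per cell cannot be told apart.

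Cholesterol is built in the cytosol and endoplasmic reticulum in a long chain of steps. The early steps make the isoprenoid farnesyl diphosphate from acetyl-CoA through mevalonate, and the later steps join this into squalene, close the rings to lanosterol and trim lanosterol to cholesterol. Most of the enzymes are targets of the transcription factor SREBP-2, encoded by Srebf2. When membranes are rich in sterol, the Insig proteins hold SREBP-2 and its escort Scap in the endoplasmic reticulum, and when sterol is scarce the factor is released and carried to the nucleus. Excess cholesterol leaves the cell through the pumps Abca1 and Abcg1, which the oxysterol-sensing LXR receptors induce. In the brain, cholesterol is made locally, since plasma lipoproteins do not cross the blood-brain barrier.

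Promoter sequences are shown because SREBP-2 is known to act on such promoters together with NF-Y, which binds the CCAAT box, and Sp1, which binds the GC box. Windows of 300 bases around the annotated start were held for 24 of the 30 genes (RefSeq, GRCm38.p6). The 4 printed here cover the gene with the largest fall in both lines among the enzymes (Tm7sf2) and the first measured gene of the chain (Hmgcs1). The others are the gene with the most CCAAT boxes (Mvk) and the enzyme gene whose change ran the other way (Ggps1). Each gives the 250 bases before the start, 5′ to 3′ on the strand of the gene. The positions are chr13:119690101-119690350 on the plus strand for Hmgcs1, chr5:114444019-114444268 on the plus strand for Mvk, chr13:14063489-14063738 on the minus strand for Ggps1 and chr19:6067851-6068100 on the minus strand for Tm7sf2. Capitals mark the CCAAT box on either strand, which reads ATTGG on the other strand, and in Hmgcs1 also a sterol element.
Hmgcs1: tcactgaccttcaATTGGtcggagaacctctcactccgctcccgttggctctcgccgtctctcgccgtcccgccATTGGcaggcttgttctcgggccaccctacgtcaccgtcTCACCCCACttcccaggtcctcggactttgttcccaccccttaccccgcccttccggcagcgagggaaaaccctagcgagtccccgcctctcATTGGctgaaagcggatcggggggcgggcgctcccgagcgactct
Mvk: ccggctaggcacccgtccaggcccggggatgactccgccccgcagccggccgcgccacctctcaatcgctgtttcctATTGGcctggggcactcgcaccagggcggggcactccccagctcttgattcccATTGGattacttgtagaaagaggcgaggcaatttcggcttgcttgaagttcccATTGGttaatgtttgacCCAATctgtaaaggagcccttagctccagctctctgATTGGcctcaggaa
Ggps1: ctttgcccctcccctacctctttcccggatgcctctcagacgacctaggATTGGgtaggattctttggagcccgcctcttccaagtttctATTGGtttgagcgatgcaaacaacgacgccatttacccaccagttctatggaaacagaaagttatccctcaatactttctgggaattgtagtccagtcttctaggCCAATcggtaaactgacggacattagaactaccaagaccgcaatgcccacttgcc
Tm7sf2: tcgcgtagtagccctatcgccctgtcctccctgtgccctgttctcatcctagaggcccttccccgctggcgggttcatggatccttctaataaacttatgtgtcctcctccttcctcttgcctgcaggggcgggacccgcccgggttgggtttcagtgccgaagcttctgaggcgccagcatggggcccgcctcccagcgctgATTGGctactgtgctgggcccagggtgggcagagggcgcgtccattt

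The printed stretch held 5 CCAAT boxes in Mvk, 3 in Hmgcs1, 3 in Ggps1 and 1 in Tm7sf2. Searched on both strands in the 300-base windows, CCAAT was found in 20 of 24 genes (83.33%), among them 15 of 16 synthesis genes with a window, against 41.06% of all 27025 genes with a window. The synthesis gene without it was Acat2, whose level was not analysed. The GC box GGGCGG was found in 21 of the 24 genes (87.5%), 14 of them synthesis genes, against 38.2% of all genes. The sterol element, spelled TCACNCCAC, was found in 1 gene, Hmgcs1, as TCACCCCAC starting at position -137 from the annotated start, against 1.436% of all genes. Its shorter core CACNCCA, which lies inside the longer spelling, was found in 6 of 24 genes (25%), against 20.56% of all genes. Over the whole 300-base window Ggps1 held 3 CCAAT boxes and Hmgcs1 4. Neither the window of Ggps1 nor those of Pmvk held GGGCGG. Whether the matches relate to the changes in level was not tested. The 27025 genes were not limited to those measured or above the background here, and no share was tested. A match describes letters in a window and is not evidence of binding.

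The first comparison asked what serotonin 100 did to these genes in E46, the line labelled sensitive. In E46, 22 of 28 genes fell, 2 rose and 4 were not called, against 19.3% of all genes called lower and 20.3% called higher. The median change was -0.71, against -0.00 over all genes. The 4 arrays of each group did not overlap for any of the 22, against 19.4% of all genes whose arrays at serotonin 100 all lay below the controls. The synthesis enzymes carried most of this: 17 of 18 fell, with a median of -1.06, and Ggps1 was the exception. Of the 18 enzymes, 11 fell at least 2-fold, against 773 of all 18820 genes.

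**Figure D1:**
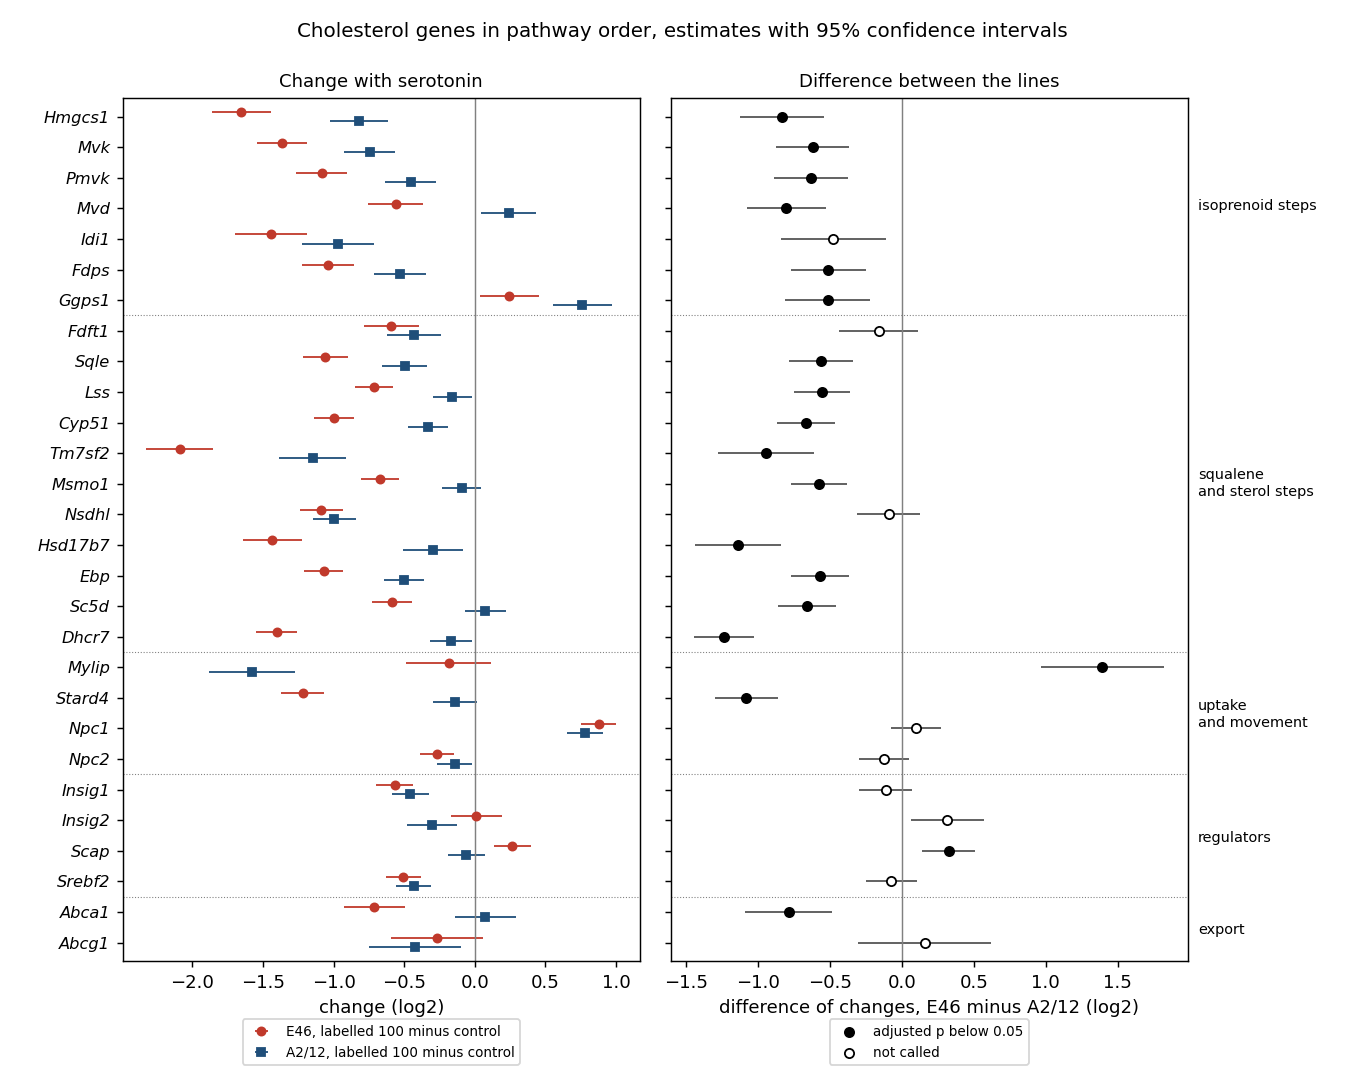
Changes of the 28 measured genes in pathway order, on a log2 scale (points are estimates, bars 95% confidence intervals, 4 arrays a group). The left panel gives serotonin 100 minus control in E46 (red circles) and A2/12 (blue squares), and the right panel the difference of these changes, E46 minus A2/12, filled where called; the differences of the synthesis enzymes all lie left of 0, from -1.23 in Dhcr7 to -0.09 in Nsdhl.

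The first measured enzyme of the chain is Hmgcs1, the cytosolic synthase that makes HMG-CoA. It read 8.86, 8.71, 8.69 and 8.61 on the E46 arrays at serotonin 100, against 10.16, 10.41, 10.53 and 10.38 on the E46 control arrays. All arrays at serotonin 100 lay far below all controls. The change was -1.65 ± 0.10 (adjusted p = 3.65e-11), a 3.14-fold lower level. Mvk, which phosphorylates mevalonate, fell by 1.36 ± 0.09, and Pmvk, which adds the next phosphate, fell by 1.08 ± 0.09. Mvd, the decarboxylase that makes isopentenyl diphosphate, fell by 0.56 ± 0.09, the smallest called change of the early steps in E46.

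Idi1 is the isomerase that readies isopentenyl units for joining. Its levels were 9.40, 9.42, 9.21 and 9.29 in E46 at serotonin 100, against 10.52, 10.89, 10.92 and 10.77 in E46 controls. The groups were far apart and the change was -1.44 ± 0.12 (adjusted p = 5.23e-09). A second Idi1 probe set gave -1.48. Fdps, which makes farnesyl diphosphate, the last intermediate shared by sterols and protein prenylation, fell by 1.04 ± 0.09. Ggps1 takes farnesyl diphosphate out of the sterol route toward geranylgeranyl diphosphate. It read 8.41, 8.52, 8.41 and 8.43 in E46 at serotonin 100, against 7.91, 8.42, 8.26 and 8.2 in E46 controls. The groups overlapped, and the change of 0.24 ± 0.10 was not called (adjusted p = 0.0587).

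All 11 genes of the squalene and sterol steps fell in E46, by 0.58 to 2.09. Tm7sf2, a sterol reductase acting just after lanosterol demethylation, read 7.08, 6.95, 6.66 and 6.86 in E46 at serotonin 100, against 8.79, 9.04, 9.0 and 9.06 in E46 controls. The change was -2.09 ± 0.11 (adjusted p = 1.04e-11), or 4.26-fold lower, the largest among the 28. Hsd17b7, the keto-reductase of the sterol demethylation complex, read 8.54, 8.55, 8.46 and 8.50 in E46 at serotonin 100, against 9.65, 10.09, 10.05 and 10.01 in E46 controls. Control replicate 1 was the lowest control and still lay well above all treated arrays, and the change was -1.43 ± 0.10. Dhcr7, the reductase that completes cholesterol, read 7.83, 7.75, 7.77 and 7.88 in E46 at serotonin 100, against 9.09, 9.35, 9.22 and 9.20 in E46 controls. The change was -1.40 ± 0.07 (adjusted p = 4.51e-12), the smallest adjusted p of the members here.

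The other sterol enzymes changed less. Nsdhl, which removes methyl groups with Msmo1, fell by 1.09 ± 0.07, Ebp, the sterol isomerase, by 1.07 ± 0.07, Sqle, which makes squalene epoxide, by 1.06 ± 0.08, and Cyp51, the lanosterol demethylase, by 1.00 ± 0.07. Lss, which closes the rings, fell by 0.71 ± 0.07, and the methylsterol oxidase Msmo1 by 0.67 ± 0.07. The smallest falls were those of squalene synthase Fdft1 at 0.59 ± 0.09 and of the desaturase Sc5d at 0.58 ± 0.07. In fold terms the falls ran from 1.48-fold in Mvd to 4.26-fold in Tm7sf2, and both the early and the late steps held large and small changes.

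Some E46 arrays at serotonin 100 share a letter in their scan name with an E46 control array, so the comparison can be made within it. There, with 2 arrays against 1, 17 of 18 synthesis enzymes were lower, with a median of -1.08. The same contrast underlies a fit with the letter as a block, which therefore rests on that 1 control array and is no second check. With the letter as a block, 21 of the 24 calls in E46 were kept, and those of Fdft1 (-0.49), Npc2 (-0.32) and Scap (0.23) were lost. Centring each array on its median moved all E46 changes at serotonin 100 up by 0.123 and all A2/12 changes up by 0.160. With that shift the median change over all genes in E46 was 0.12. In E46, 21 members were then lower and 3 higher, Ggps1 being called at 0.37. Ggps1 was also called without E46 control replicate 2, at 0.32.

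**Figure D2:**
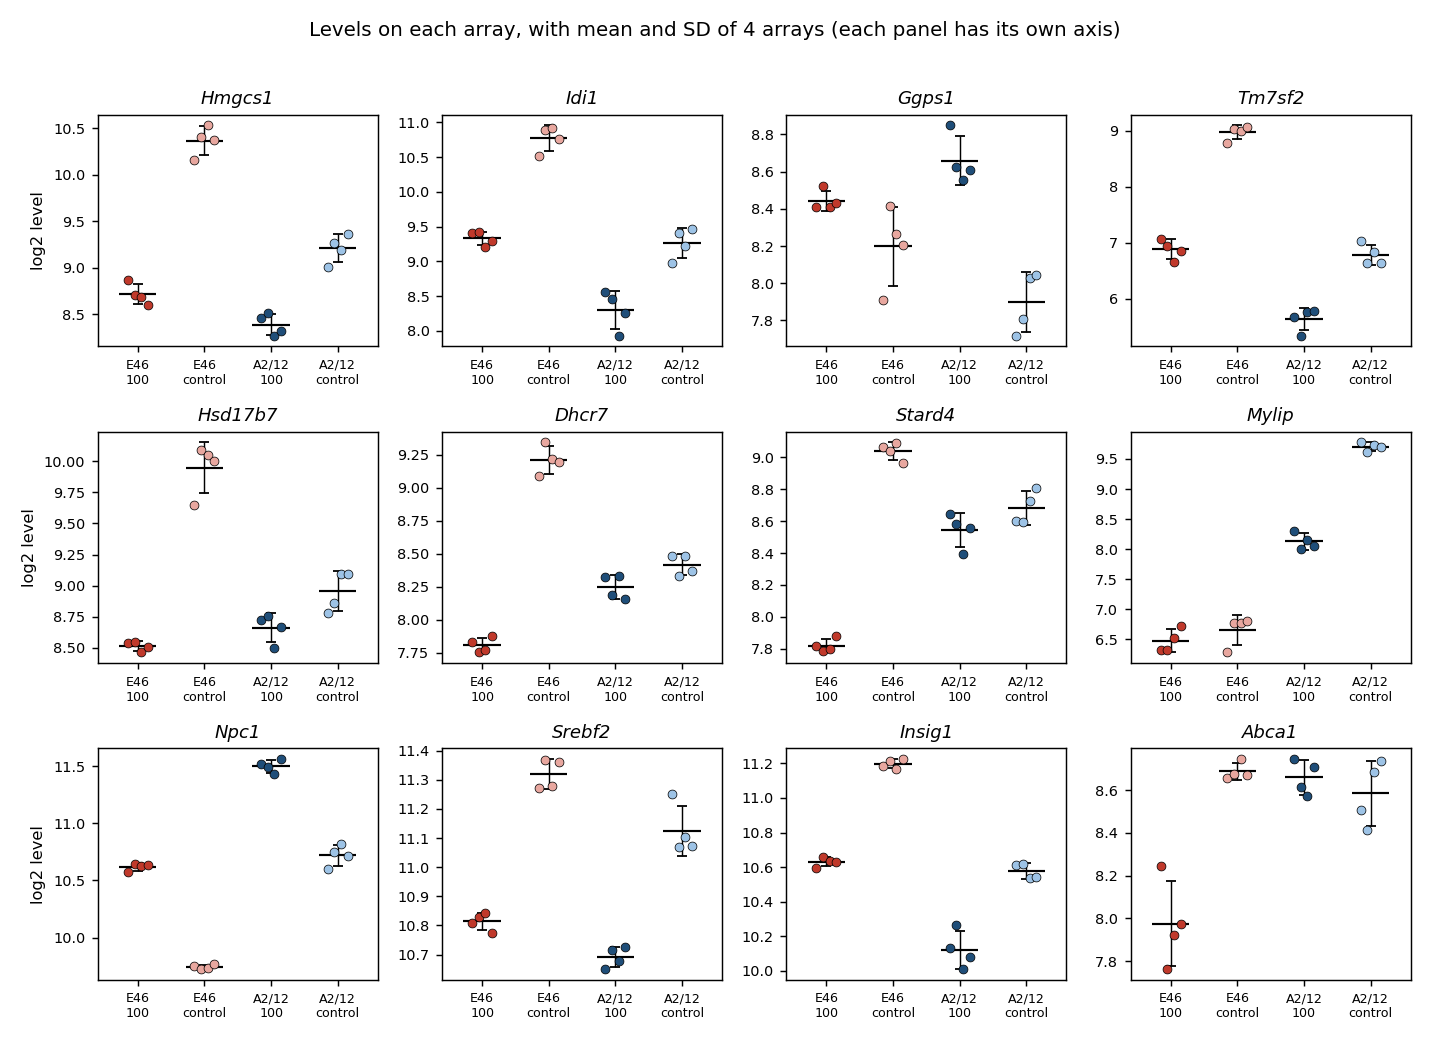
Log2 level of 12 genes on each array (points), with the mean (line) and SD (bars) of 4 arrays, in E46 at serotonin 100, E46 controls, A2/12 at serotonin 100 and A2/12 controls; each panel has its own vertical axis. Dhcr7 and Stard4 are low in E46 at serotonin 100 and close to controls in A2/12, Mylip falls in A2/12, and Npc1 is higher with serotonin 100 in both lines.

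The second comparison asked the same of A2/12, labelled unresponsive. Here 17 of 28 genes fell, 3 rose and 8 were not called, against 21.1% of all genes called lower and 24.8% called higher. For 19 genes all arrays at serotonin 100 lay below all controls, against 19.9% of all genes. The median change was -0.38, against 0.00 over all genes. Of the 18 synthesis enzymes 12 fell, 2 rose and 4 were not called, with a median of -0.44. Only 1 of the 18 fell at least 2-fold, against 1212 of all 18820 genes. The count of called members depends on the scaling more than in E46. With each array centred on its median, 13 members were lower and 5 higher, and the median change over all genes in A2/12 was 0.16. After quantile normalization 21 members were lower and 3 higher. After quantile normalization Lss (-0.22), Dhcr7 (-0.23), Stard4 (-0.21) and Npc2 (-0.17) were also called lower. With centred arrays the falls of Cyp51, Hsd17b7, Insig2 and Abcg1 lost their calls, and Sc5d and Abca1 were called higher.

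Tm7sf2 had the largest enzyme change in A2/12 as well. It read 5.67, 5.34, 5.77 and 5.78 in A2/12 at serotonin 100, against 7.03, 6.65, 6.83 and 6.65 in A2/12 controls. The change was -1.15 ± 0.11 (adjusted p = 2.40e-08), and the groups did not overlap. Nsdhl read 9.38, 9.31, 9.19 and 9.21 in A2/12 at serotonin 100, against 10.11, 10.36, 10.28 and 10.32 in A2/12 controls. It fell by 1.00 ± 0.07. Idi1 read 8.57, 8.45, 7.93 and 8.26 in A2/12 at serotonin 100, against 8.98, 9.41, 9.22 and 9.47 in A2/12 controls. Its change was -0.97 ± 0.12, with replicate 3 the lowest of the treated arrays, and its other probe set gave -0.96. Hmgcs1 read 8.46, 8.52, 8.27 and 8.32 in A2/12 at serotonin 100, against 9.01, 9.27, 9.20 and 9.37 in A2/12 controls, a change of -0.82 ± 0.10.

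Mvk fell by 0.74 ± 0.09 in A2/12, Fdps by 0.53 ± 0.09, Ebp by 0.50 ± 0.07, Sqle by 0.50 ± 0.08, Pmvk by 0.46 ± 0.09, Fdft1 by 0.43 ± 0.09 and Cyp51 by 0.33 ± 0.07. Hsd17b7 fell by 0.29 ± 0.10, a call that was lost when A2/12 control replicate 3 or 4 or serotonin replicate 3 was left out (-0.25, -0.25 and -0.24). The 4 enzymes that were not called all belong to the lanosterol and later steps. Their changes were -0.17 ± 0.07 for Dhcr7, -0.16 ± 0.07 for Lss, -0.09 ± 0.07 for Msmo1 and 0.08 ± 0.07 for Sc5d. Dhcr7 was called lower without A2/12 control replicate 2 (-0.20) or serotonin replicate 1 (-0.19) or 3 (-0.20), and Lss without control replicate 1 (-0.18).

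The enzymes that rose in A2/12 were Ggps1 and Mvd. Ggps1 read 8.85, 8.62, 8.56 and 8.61 in A2/12 at serotonin 100, against 7.72, 7.81, 8.03 and 8.04 in A2/12 controls. The groups did not overlap, and the change was 0.76 ± 0.10 (adjusted p = 1.53e-06). Mvd read 7.49, 7.64, 7.71 and 7.62 in A2/12 at serotonin 100, against 7.62, 7.17, 7.42 and 7.28 in A2/12 controls. The groups overlapped, and the change of 0.24 ± 0.09 (adjusted p = 0.0389) lost its call without control replicate 2 (0.17) or 4 (0.21), or without serotonin replicate 2 (0.23), 3 (0.21) or 4 (0.24). Within the 1 scan-name letter that holds both A2/12 groups, with 2 treated arrays against 1 control, 15 of 18 enzymes were lower, with a median of -0.41. With the letter as a block, 15 of the 20 calls in A2/12 were kept, and those of Fdft1, Fdps, Cyp51, Hsd17b7 and Mvd were lost. Their changes were then -0.45, -0.44, -0.34, -0.35 and 0.28, close to those without the block. The block fit rests on the same 1 control array, replicate 4, so it is no second check of the comparison within the letter. Abcg1, among the calls kept, read 5.77 on that array, the highest of the A2/12 controls.

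Whether the lines differed in their response was tested directly, as the change in E46 minus the change in A2/12. Of 28 genes 17 had a lower value in E46, 2 a higher value and 9 were not called, against 10.9% of all genes called lower and 11.1% called higher. The direction rests on the doses of the titles: with those of the description field 3 were lower and 14 higher, with a median of 0.29. With the title doses the difference was below 0 for all 18 synthesis enzymes and called for 15, with a median of -0.60. It was -1.23 ± 0.10 for Dhcr7 (adjusted p = 1.04e-08), -1.14 ± 0.14 for Hsd17b7, -0.94 ± 0.16 for Tm7sf2, -0.83 ± 0.14 for Hmgcs1 and -0.80 ± 0.13 for Mvd. With the scan-name letter as a block, 9 of the 19 differences were still called, all lower: Dhcr7, Hsd17b7, Tm7sf2, Mvd, Cyp51, Mvk, Msmo1, Ebp and Stard4. In that fit each difference rests on 1 control array in each line.

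The enzymes fell into a few patterns over both lines. In 9 of them the level fell in both lines and more in E46: Hmgcs1, Mvk, Pmvk, Fdps, Sqle, Cyp51, Tm7sf2, Hsd17b7 and Ebp. In 4 others, Lss, Msmo1, Sc5d and Dhcr7, the level fell in E46, was not called in A2/12, and the difference was called. In 3 the level fell in both lines and the difference was not called. For Nsdhl it was -0.09, with a 95% confidence interval from -0.31 to 0.12, for Fdft1 -0.16, from -0.43 to 0.11, and for Idi1 -0.48, from -0.84 to -0.11 (adjusted p = 0.0561). Idi1 was called at -0.60 to -0.52 without E46 control replicate 1, A2/12 control replicate 2 or 4, or A2/12 serotonin replicate 3. Mvd fell in E46 and rose in A2/12. Ggps1 rose in A2/12 and was not called in E46, with a called difference of -0.52 ± 0.14.

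The lines also differed before serotonin. In E46 controls 22 of 28 genes were higher than in A2/12 controls, 4 were lower and 2 were not called, against 21.1% of all genes called higher and 18.1% called lower. All 18 synthesis enzymes were higher in E46 controls, by a median of 1.14. Marker lists differed between the same arrays: the mean level of the astrocyte and progenitor markers was 7.33 to 7.45 in E46 controls against 5.89 to 5.97 in A2/12 controls, that of the mesenchyme markers 8.77 to 8.89 against 10.02 to 10.16, and that of the neuron markers 5.18 to 5.29 against 5.51 to 5.66. Their part in the difference was not tested. The scan-name letters ran from A to D on the E46 arrays and from E to G on the A2/12 arrays. A difference in level between the lines therefore cannot be told apart from one between these letters. Tm7sf2 averaged 8.98 ± 0.12 in E46 controls and 6.79 ± 0.18 in A2/12 controls (SD, n = 4 each), a difference of 2.19 ± 0.11. Cyp51 averaged 10.77 ± 0.14 in E46 controls and 9.06 ± 0.06 in A2/12 controls, a difference of 1.71 ± 0.07. Idi1 differed by 1.51 ± 0.12, Msmo1 by 1.38 ± 0.07 and Nsdhl by 1.35 ± 0.07. The smallest enzyme difference was that of Ggps1 at 0.30 ± 0.10, whose arrays overlapped and whose call was lost, at 0.23 to 0.28, without E46 control replicate 2 or 3 or A2/12 control replicate 1 or 2.

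At serotonin 100 the distance between the lines was shorter. The mean was higher in E46 for 14 of 18 enzymes, with a median gap of 0.46, against 1.14 between the controls. The gap ran from -0.44 for Dhcr7 to 1.26 for Nsdhl. E46 at serotonin 100 minus the A2/12 controls ran from -0.61 for Dhcr7 to 0.71 for Msmo1, with 11 of 18 enzymes higher in E46 at serotonin 100. These gaps at serotonin 100 are values without a test of their own, and line and scan-name letter cannot be told apart in them. The difference of the responses tests only whether the gap at serotonin 100 differs from that between controls. For Dhcr7 the order of the lines turned: it averaged 7.81 ± 0.06 in E46 and 8.25 ± 0.09 in A2/12 at serotonin 100, and 9.21 ± 0.11 in E46 and 8.42 ± 0.08 in A2/12 among controls (SD, n = 4 each).

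**Figure D3:**
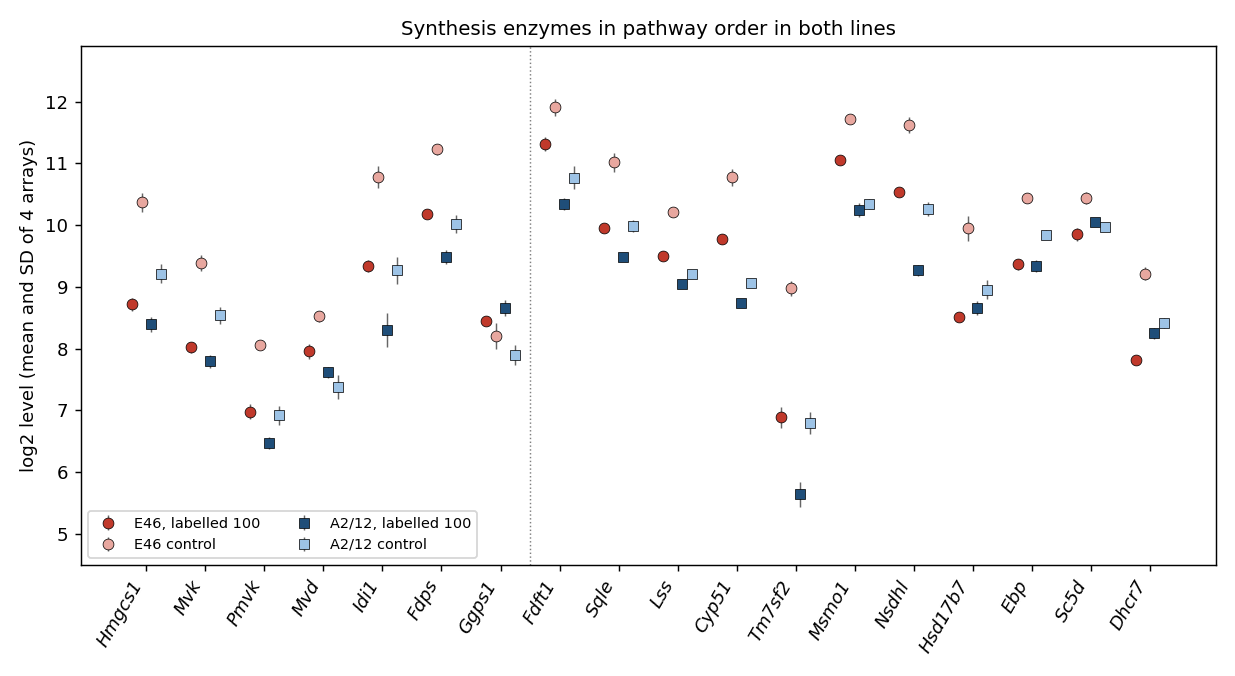
Mean log2 level of the 18 measured synthesis enzymes in pathway order (points, bars are SD of 4 arrays) in E46 at serotonin 100, E46 controls, A2/12 at serotonin 100 and A2/12 controls; the dotted line parts the isoprenoid from the squalene and sterol steps. E46 controls have the highest mean of the 4 groups for every enzyme except Ggps1.

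Serotonin 1 was compared with controls in E46 to see whether the lower dose acted alike. Of 28 genes 0 were called with limma, against 0.0106% of all genes called in either direction. An unadjusted p under 0.05 was reached by 4 of the 28, against 2993 of all 18820 genes. The changes of the 28 lay between -0.27 and 0.20, with a median of -0.03. Hmgcs1 read 10.16, 10.41, 10.53 and 10.38 in E46 controls, 10.37, 10.55, 10.34 and 10.69 at serotonin 1 and 8.86, 8.71, 8.69 and 8.61 at serotonin 100. The arrays at serotonin 1 mixed with the controls, and the 95% confidence interval of their difference, -0.09 to 0.32, does not reach the change seen at serotonin 100. For Tm7sf2 that interval was -0.18 to 0.29 and for Stard4 it was -0.15 to 0.16.

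Serotonin 100 was also set against serotonin 1 in E46, a comparison that shares its treated arrays with the one above. Of 28 genes 22 were lower, 2 higher and 4 not called, against 17.8% of all genes called lower and 23.6% called higher. Of the 18 enzymes 17 were lower. Tm7sf2 differed by -2.15 ± 0.11 and Hmgcs1 by -1.77 ± 0.10. Within the scan-name letter that holds both groups, 2 arrays against 1, 17 of 18 enzymes were lower, with a median of -0.97. If the description field holds the true doses, these lower levels belong to 1 µg/ml and the levels near control to 100 µg/ml.

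**Figure D4:**
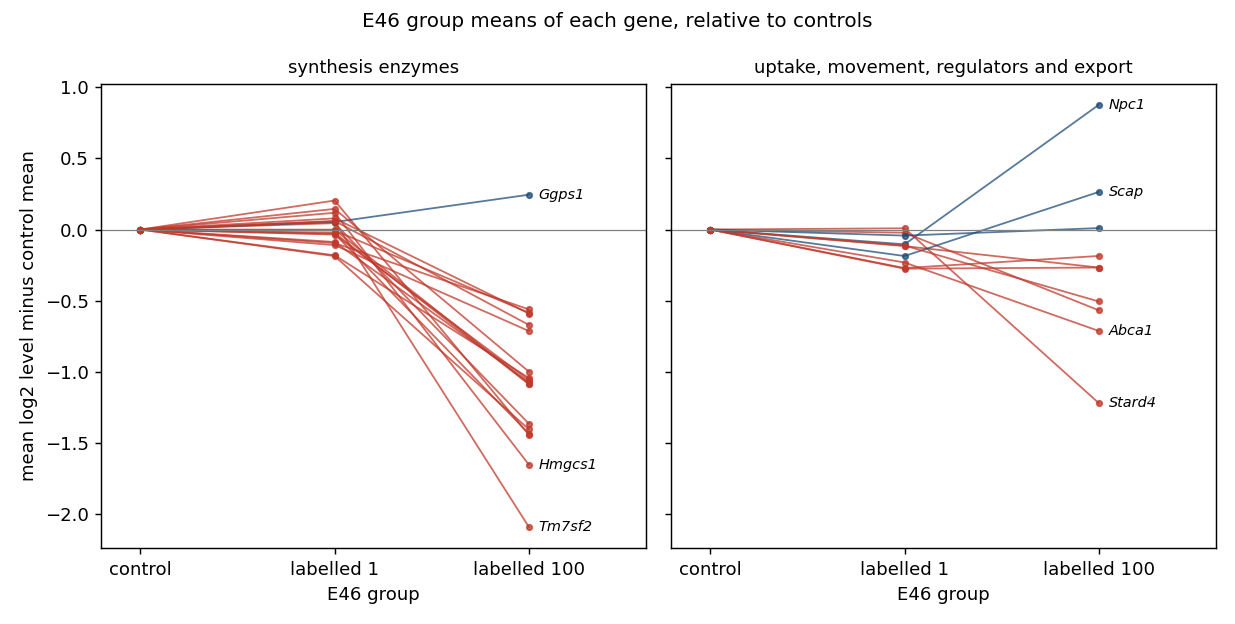
Group means of E46 minus the E46 control mean (vertical axis, log2) for controls, serotonin 1 and serotonin 100, with a line for each gene; synthesis enzymes on the left, the 10 other genes on the right (red lines end below 0, blue lines above 0). At serotonin 1 the lines stay between -0.27 and 0.20, and at serotonin 100 they spread from -2.09 in Tm7sf2 to 0.88 in Npc1.

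Of the 4 genes of uptake and movement, 2 fell in E46, 1 rose and 1 was not called. Stard4, a cytosolic protein that carries sterol between membranes, read 7.82, 7.79, 7.80 and 7.88 in E46 at serotonin 100, against 9.06, 9.04, 9.09 and 8.96 in E46 controls. The change was -1.22 ± 0.07 (adjusted p = 4.91e-11). The A2/12 arrays read 8.64, 8.58, 8.39 and 8.55 at serotonin 100, against 8.60, 8.59, 8.73 and 8.81 in controls. These overlapped, the change of -0.14 ± 0.07 was not called, and the lines differed by -1.08 ± 0.11 (adjusted p = 1.34e-07).

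Npc1, the membrane protein that passes cholesterol out of lysosomes, rose in both lines. It read 10.57, 10.64, 10.63 and 10.64 in E46 at serotonin 100, against 9.75, 9.72, 9.73 and 9.76 in E46 controls. On the A2/12 arrays it read 11.52, 11.49, 11.43 and 11.56 at serotonin 100, against 10.60, 10.75, 10.82 and 10.72 in controls. The changes were 0.88 ± 0.06 in E46 and 0.78 ± 0.06 in A2/12, and their difference of 0.10 was not called (95% confidence interval -0.08 to 0.27). Its soluble partner Npc2 changed by -0.27 ± 0.06 in E46 (adjusted p = 8.62e-04) and by -0.14 ± 0.06 in A2/12 (adjusted p = 0.0557). With centred arrays the E46 call of Npc2 was lost, at -0.14.

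Mylip, a ubiquitin ligase that marks lipoprotein receptors for breakdown and is an LXR target, had the largest difference in response between the lines. It read 6.32, 6.32, 6.53 and 6.72 in E46 at serotonin 100, against 6.28, 6.78, 6.77 and 6.80 in E46 controls. These overlapped and the change of -0.19 ± 0.15 was not called. In A2/12 it read 8.30, 8.00, 8.15 and 8.06 at serotonin 100, against 9.78, 9.61, 9.74 and 9.69 in controls. The change was -1.58 ± 0.15 (adjusted p = 9.31e-09). The difference of the responses was 1.39 ± 0.21, and E46 controls minus A2/12 controls gave -3.05 ± 0.15.

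Among the regulators, Srebf2 and Insig1 fell in both lines. Srebf2, which encodes SREBP-2, read 10.81, 10.83, 10.84 and 10.78 in E46 at serotonin 100, against 11.27, 11.37, 11.28 and 11.36 in E46 controls. In A2/12 it read 10.65, 10.71, 10.68 and 10.73 at serotonin 100, against 11.25, 11.07, 11.10 and 11.07 in controls. The changes were -0.51 ± 0.06 in E46 and -0.43 ± 0.06 in A2/12. Their difference was -0.07, with a 95% confidence interval from -0.25 to 0.10. Insig1, itself an SREBP target, averaged 10.63 ± 0.03 in E46 at serotonin 100 and 11.20 ± 0.03 in E46 controls, a change of -0.57 ± 0.06. In A2/12 it averaged 10.12 ± 0.11 at serotonin 100 and 10.58 ± 0.04 in controls (SD, n = 4 each), a change of -0.46 ± 0.06, and the difference of -0.11 was not called (interval -0.30 to 0.07).

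Scap, the escort of SREBP, read 9.69, 9.70, 9.71 and 9.71 in E46 at serotonin 100, against 9.42, 9.51, 9.35 and 9.46 in E46 controls. The groups did not overlap and the change was 0.26 ± 0.06 (adjusted p = 0.00158). It was -0.06 ± 0.06 and not called in A2/12, and the lines differed by 0.32 ± 0.09 (adjusted p = 0.0100). With the scan-name letter as a block the call in E46 was lost, at 0.23, and so was that of the difference, at 0.24. A second, dim probe set of Scap changed by 0.04 in E46 and by 0.12 in A2/12. Insig2, the other Insig protein, was not called in E46, at 0.01 ± 0.09. In A2/12 it averaged 8.66 ± 0.13 at serotonin 100 and 8.96 ± 0.08 in controls, a change of -0.30 ± 0.09 (adjusted p = 0.00548). The difference of the responses of Insig2, 0.31 ± 0.12, was not called, and was called at 0.39 without E46 serotonin 100 replicate 1.

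Of the export pumps, Abca1, which loads cholesterol onto lipid-poor apolipoproteins, fell in E46. It read 8.24, 7.76, 7.92 and 7.97 in E46 at serotonin 100, against 8.66, 8.68, 8.75 and 8.67 in E46 controls. The treated arrays were the more scattered, all below the controls, and the change was -0.71 ± 0.10 (adjusted p = 8.44e-06). Abca1 in A2/12 read 8.74, 8.61, 8.57 and 8.71 at serotonin 100, against 8.51, 8.41, 8.68 and 8.74 in controls. The change there was 0.08 ± 0.10, and the lines differed by -0.79 ± 0.15 (adjusted p = 3.64e-04).

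Abcg1, which exports cholesterol to lipoprotein particles, lay close to the background. It averaged 4.43 ± 0.20 in E46 at serotonin 100, where the background was 4.45, and 4.70 ± 0.08 in E46 controls, with no call. It read 4.83, 4.65, 4.78 and 4.66 in A2/12 at serotonin 100, against 5.16, 4.66, 5.02 and 5.77 in A2/12 controls. The groups overlapped, control replicate 4 was the highest, and the change was -0.42 ± 0.16 (adjusted p = 0.0315). Without that array it was -0.22 and not called, and the call was also lost without control replicate 1 (-0.42) or serotonin replicate 2 or 4 (-0.40 each). Between the controls of the lines its difference was -0.46 ± 0.16, which lost its call without E46 control replicate 4 (-0.42) or A2/12 control replicate 4 (-0.25). The mean log2 level of 8 macrophage markers ran from 4.41 to 5.53 over the A2/12 controls, against 4.51 to 4.70 in A2/12 at serotonin 100, and its part in this was not tested.

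Genes near the pathway that are not members were counted from 5 further lists, to be read against 19.3% of all genes called lower and 20.3% called higher in E46, and 21.1% lower and 24.8% higher in A2/12. Of 12 other isoprenoid and sterol genes, 2 fell and 5 rose in E46, and 3 fell and 7 rose in A2/12, with medians of 0.18 and 0.37. Cyb5r3, an electron donor in sterol oxidation, fell by 0.83 ± 0.06 in E46 and by 1.19 ± 0.06 in A2/12. Acat1, which makes acetoacetyl-CoA in mitochondria, fell by 0.81 ± 0.09 in E46 and by 1.42 ± 0.09 in A2/12. Rabggtb, a subunit of the enzyme that puts geranylgeranyl groups on Rab proteins, rose by 0.96 ± 0.10 in E46 and by 1.32 ± 0.10 in A2/12.

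Of 13 other uptake, storage and movement genes, 3 fell and 7 rose in E46, and 4 fell and 7 rose in A2/12, against 19.3% lower and 20.3% higher among all genes in E46 and 21.1% and 24.8% in A2/12. Lrp1 and Vldlr, both lipoprotein receptors, moved in opposite directions. Lrp1 changed by -0.75 ± 0.08 in E46 and -1.73 ± 0.08 in A2/12, Vldlr by 0.65 ± 0.08 in E46 and 1.49 ± 0.08 in A2/12. Lrp8 was not called in E46, at -0.06 ± 0.10, and rose by 1.30 ± 0.10 in A2/12, with a difference of -1.36 ± 0.15.

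Of 6 other SREBP regulators, 2 fell and 2 rose in E46, and 3 fell and 1 rose in A2/12 (all genes: 19.3% lower and 20.3% higher in E46, 21.1% lower and 24.8% higher in A2/12). Erlin1, a membrane protein of the endoplasmic reticulum that binds cholesterol and restrains SREBP, rose by 1.55 ± 0.07 in E46 and by 1.25 ± 0.07 in A2/12. Rnf145, a sterol-responsive ubiquitin ligase, fell by 0.90 ± 0.08 in E46 and by 1.16 ± 0.08 in A2/12. Mbtps1, a protease that cuts SREBP in the Golgi, changed by -0.09 ± 0.07 without a call in E46 and by -0.74 ± 0.07 in A2/12.

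Of 13 other oxysterol, LXR and export genes, 4 fell and 4 rose in E46, and 9 fell and 1 rose in A2/12. Among all genes 19.3% fell and 20.3% rose in E46, and 21.1% fell and 24.8% rose in A2/12. Lpcat3, a phospholipid-remodelling enzyme and LXR target, fell by 1.04 ± 0.07 in E46 and by 0.44 ± 0.07 in A2/12. Smpdl3a, a phosphodiesterase, fell by 0.78 ± 0.18 in E46 and by 1.79 ± 0.18 in A2/12, where its level at serotonin 100, 4.19, was under the background of 4.35. Abca2, a lipid transporter, was not called in E46, at 0.02 ± 0.09, and fell by 0.78 ± 0.09 in A2/12.

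Fatty acid synthesis shares SREBP control with the sterol chain. Of 14 fatty acid genes linked to SREBP, 9 fell and 0 rose in E46, and 10 fell and 1 rose in A2/12, where the shares over all genes were 19.3% and 20.3% in E46 and 21.1% and 24.8% in A2/12. Their medians were -0.49 in E46 and -0.34 in A2/12. Acss2, which makes acetyl-CoA from acetate, fell by 1.53 ± 0.10 in E46 and by 1.87 ± 0.10 in A2/12. Elovl6, which lengthens fatty acids, fell by 1.63 ± 0.08 in E46 and by 1.33 ± 0.08 in A2/12, and the desaturase Scd2 by 0.76 ± 0.07 in E46 and by 1.13 ± 0.07 in A2/12. For these 14 genes the difference of the responses was called lower for 3 and higher for 2, against 10.9% and 11.1% of all genes, with a median of 0.03, beside -0.60 for the 18 synthesis enzymes and -0.02 for all genes.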

How the data were processed

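Total RNA of 20 samples was hybridised to Affymetrix gene arrays, and the deposited log2 values come from RMA, per the submitters' processing notes, which corrects background, normalizes between arrays and summarises each probe set. Its version is not given, and no detection calls were used, so changes of genes near the background are compressed. Of 35556 probe sets, 21218 carry 1 symbol, 1881 several and 12457 none, and only those with 1 symbol were used. For the 1386 genes that several probe sets measure, the brightest over the 20 arrays was kept, which left 18820 genes. Genes kept the symbols of the array annotation. The Entrez IDs of 21185 probe sets were found in RefSeq, and this match served only to look up listed genes under another symbol.

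These values were tested with limma 3.58.1 (R 4.3.3), using group means over all 20 arrays, 15 residual degrees of freedom, eBayes and Benjamini-Hochberg adjustment over all genes. Precision is limited by the number of arrays: a change had a median SE of 0.100, and 0.142 for the difference of responses. The members and the other gene lists were chosen with earlier results of these data known. All members are named, in full for the largest changes of each role and for those that run against their role, and of each other list the 3 genes with the smallest adjusted p at serotonin 100. The code was tested on simulated data. Alternatives were fits per line, blocks, single scan-name position numbers, eBayes settings, array weights, normalizations, filters, probe set choices, a 1.5-fold threshold, the doses of the description field and the omission of single arrays. Plots used matplotlib 3.10.9 (Python 3.11.15).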

Additional observations from a re-analysis of the deposited data

Results flagged for a closer look

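In 140 groups of 4 arrays (28 genes in 5 groups), 2 held an array that stood apart by Dixon's test at 95%, where chance alone flags about 1 in 20 groups, or 7 here. Ebp read 9.73 on A2/12 control replicate 4, against 9.87 to 9.89 on the other 3 controls. Mylip read 6.28 on E46 control replicate 1, against 6.77 to 6.80 on the other 3.

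The response to serotonin 100 differed between the lines, by the tested difference E46 minus A2/12 (limma, adjusted p below 0.05), for 19 genes. Among the early enzymes it was -0.83 for Hmgcs1, -0.62 for Mvk, -0.63 for Pmvk, -0.80 for Mvd, -0.51 for Fdps and -0.52 for Ggps1. Among the later enzymes it was -0.56 for Sqle, -0.55 for Lss, -0.67 for Cyp51, -0.94 for Tm7sf2, -0.58 for Msmo1, -1.14 for Hsd17b7, -0.57 for Ebp, -0.66 for Sc5d and -1.23 for Dhcr7. Among the other genes it was 1.39 for Mylip, -1.08 for Stard4, 0.32 for Scap and -0.79 for Abca1.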

How the results depend on the processing

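The replicate numbers of the titles do not pair the arrays: over 40 pairs of the same number the correlation of deviations from group means averaged 0.0104, from -0.55 to 0.41, and 14 were above 0.1. With the replicate block, 24, 0, 23, 21, 19 and 26 members were called in E46 at serotonin 100, E46 at serotonin 1, serotonin 100 against 1, A2/12 at serotonin 100, the difference of responses and the controls of the lines (24, 0, 24, 20, 19 and 26 without it). In the same order, leaving out 1 array at a time gave 24 to 25, 0 to 0, 23 to 24, 17 to 21, 19 to 20 and 25 to 27. Counts moved by over 1.5 times where few arrays were fitted. Each position number holds 6 or 7 arrays of the 5 groups, so most groups are then a single array, assumed to vary like the others, and these counts have 1 or 2 residual degrees of freedom and say little about stability. Position number 9 alone gave 8, 13, 2, 0 and 9 for E46 at serotonin 100, serotonin 100 against 1, A2/12, the difference and the controls, position 5 alone gave 9 in A2/12 and 3 for the difference, and position 7 alone gave 13 in A2/12 and 8 for the difference. A fold of at least 1.5 left 8 of 28 members in A2/12 (6 lower, 2 higher), against 4397 of all 18820 genes. For the difference it left 12 of 28, against 2293 of all 18820 genes. The scan-name letter block, which rests on 1 control array in each line, left 9 for the difference. With the doses of the description field, which rename the E46 groups, the counts were 0 at serotonin 100, 24 at serotonin 1, 24 for serotonin 100 against 1 (2 lower, 22 higher, turned round) and 17 for the difference (3 lower, 14 higher, turned round). Of single genes, Abcg1 turned with position 7 alone, to 0.084 in A2/12 and 0.043 between controls, neither called. Of 672 single-gene values in E46 at serotonin 100, 640 kept their call status (8 of these, uncalled, changed sign), 28 lost and 4 gained a call. Of 672 in A2/12, 587 kept it (10 of these, uncalled, changed sign), 63 lost and 21 gained a call. Npc2, called lower at serotonin 100 against 1, lost its call (-0.15 to -0.13) without E46 serotonin 100 replicate 1, 2 or 4 or serotonin 1 replicate 1, 2 or 4. Npc2 between the controls was called at 0.17 without E46 control replicate 1 or A2/12 control replicate 1. Of the alternatives chosen after seeing the data, leaving out the 4 arrays of low upper quartile gave 25, 0, 24, 21, 20 and 26 calls, and leaving out E46 control replicate 3 and A2/12 control replicate 4 gave 24, 0, 23, 17, 19 and 25. Levels near the background limit Abcg1.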
